A study of Mus musculus with 8 samples.

Results

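The macrophage genes followed here are 10 genes that mark macrophages in mouse tissue. They were chosen by name, as Emr1 (now called Adgre1), Csf1r, Mrc1, Cd163, Cd68, Cd14, Msr1, Marco, Clec7a and Gpnmb. The arrays held 16 probes for them, of which 13 were kept, and all 10 genes were among the 16362 genes tested. For description, 4 were grouped as resident-type genes (Emr1, Csf1r, Mrc1, Cd163) and 6 as phagocytic or pattern-recognition genes (Cd68, Cd14, Msr1, Marco, Clec7a, Gpnmb). Emr1 and Csf1r are genes of macrophages in general, so resident-type is only a label for those 4. The samples were RNA of mouse salivary tissue on 1-colour Agilent arrays, 1 array a sample. The 5 groups were AKT-induced salivary gland tumour without treatment (n = 2), the same kind of tumour after 3 days of rapamycin (n = 1) or 14 days of rapamycin (n = 2), and, without treatment, normal submandibular gland (n = 1) and normal parotid gland (n = 2). AKT is a kinase that acts upstream of mTOR, and rapamycin inhibits mTOR. Strain, sex, age, the way AKT was activated, pooling and the dose of rapamycin were not given in the sources used here, and neither was the animal behind each array, so p-values measure only the spread between these samples, which may be technical.

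Macrophages are phagocytes that live in every tissue and are kept alive there by signals through the CSF1 receptor. Resident macrophages of connective tissue are known for scavenger and endocytic receptors such as CD163 and the mannose receptor. Macrophages that take up debris or lipid are known for lysosomal and lipid-handling proteins, including CD68, the scavenger receptor MSR1 and GPNMB. Several of these genes are also expressed by other cells, such as CD14 by neutrophils and epithelium.

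Levels below are log2 signals relative to the 75th percentile of the array, so 0 is the signal at that percentile. A level of one gene says nothing about that of another, because probes differ in brightness. Differences are on the same log2 scale and carry the standard error (SE) of the fit. They were tested with limma over all 16362 genes, and a gene was called at a Benjamini-Hochberg adjusted p under 0.05. In tissue RNA, fewer macrophages and less RNA per macrophage cannot be told apart.

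The arrays differed in ways that bear on every comparison. The 75th-percentile signal ranged from 145 to 972, with untreated tumour brightest (966 and 972), and 43.2% to 58.4% of spots were well above background. The arrays were on 2 slides with separate scan times: untreated tumour, day 14 replicate 1 and parotid replicate 1 shared slide 1, while day 3, day 14 replicate 2, submandibular gland and parotid replicate 2 shared slide 2. Spots called non-uniform numbered 791 at day 3 and 5 to 51 on the remaining arrays. Xist and Y-linked transcripts were both present on each day 14 array (Xist at −2.10 and −2.40, with 3 of 4 Y-linked genes well above background), whereas each of the other 6 arrays held only one of these kinds. On all 8 arrays, 6 of 6 general leukocyte markers were well above background, and epithelial markers averaged 2.92 to 4.95. Skeletal muscle markers (6 genes) averaged 6.31 and 6.51 at day 14 and 3.08 in parotid replicate 2, against −6.11 to −3.74 on the other 5 arrays. The part of muscle, sex and slide in the results below was not tested beyond the values given.

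**Figure D1:**
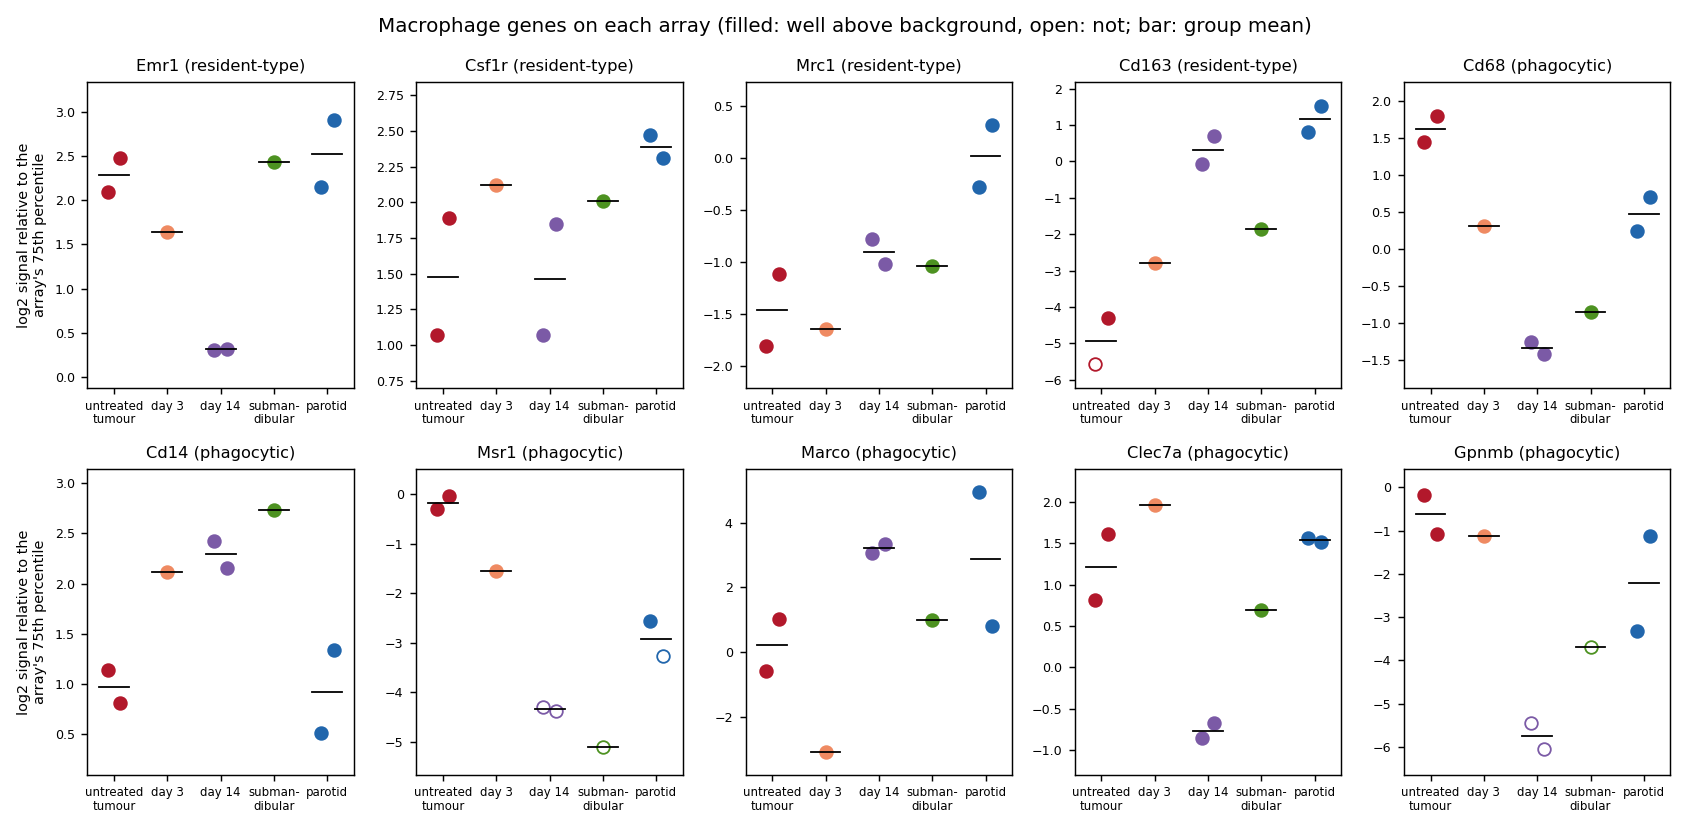
Log2 signal relative to the array's 75th percentile (vertical axis, a separate scale in each panel) for the 10 macrophage genes in the 5 groups, 1 point an array. Filled points are well above background, open points are not, and the bar is the group mean. Cd163 lay below −4 in both untreated tumours and above −0.1 at day 14 and in parotid, and Cd68, Msr1 and Gpnmb were lower at day 14 than in untreated tumour.

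The resident-type genes did not share one pattern. Cd163, the receptor that clears haemoglobin bound to haptoglobin, had the widest range among the 4. Its probe (mm8, chr6:124296085-124296144) read −5.57 and −4.31 in untreated tumour, −2.78 at day 3, −0.08 and 0.71 at day 14, −1.86 in the submandibular gland, and 0.81 and 1.52 in the parotid glands. In untreated tumour replicate 1 it was not well above background. The groups ran from parotid, day 14 and submandibular gland down to day 3 and untreated tumour, with no overlap between neighbours in that order. The difference between day 14 and parotid was not called.

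Mrc1, the mannose receptor, followed the same order of parotid and day 14 over untreated tumour within a smaller range. Its levels (probe at mm8, chr2:14249431-14249491) were −1.80 and −1.11 in untreated tumour, −1.64 at day 3, −0.78 and −1.02 at day 14, −1.04 in the submandibular gland, and −0.28 and 0.32 in the parotid glands. Parotid was highest, and the day 14 arrays, the submandibular gland and the higher untreated tumour lay close together. The day 3 value lay between those of the untreated tumours.

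Csf1r, the receptor for CSF1 and IL-34 on which macrophages depend for survival, varied least among the 10 genes, with group means 0.93 apart. It read 1.07 and 1.89 in untreated tumour, 2.12 at day 3, 1.07 and 1.85 at day 14, 2.01 in the submandibular gland, and 2.47 and 2.31 in the parotid glands. Day 14 and untreated tumour overlapped fully. A dimmer second probe of Csf1r gave a day 14 minus untreated tumour difference of −1.07, where the brighter one gave −0.03, so the 2 probes disagree.

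Emr1 encodes an adhesion G protein-coupled receptor used as a general marker of mouse macrophages, and it was lowest at day 14. Its probe (mm8, chr17:57168755-57168814) read 2.09 and 2.48 in untreated tumour, 1.64 at day 3, 0.31 and 0.32 at day 14, 2.43 in the submandibular gland, and 2.15 and 2.90 in the parotid glands. The untreated tumours, submandibular gland and parotid overlapped, day 3 lay just below them, and both day 14 arrays were lower than all 6 others. A second Emr1 probe was well above background on 1 array and was left out.

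Among the phagocytic genes, Cd68 encodes a heavily glycosylated protein of late endosomes and lysosomes. Its levels (probe at mm8, chr11:69481007-69481066) were 1.45 and 1.79 in untreated tumour, 0.31 at day 3, −1.25 and −1.41 at day 14, −0.84 in the submandibular gland, and 0.25 and 0.71 in the parotid glands. The untreated tumours were the highest arrays and the day 14 tumours the lowest. Day 3 lay within the range of parotid.

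Msr1, the class A scavenger receptor that binds modified lipoproteins, had the same highest group. Its brightest probe (mm8, chr8:41102621-41102680) read −0.30 and −0.04 in untreated tumour, −1.54 at day 3, −4.29 and −4.37 at day 14, −5.11 in the submandibular gland, and −2.56 and −3.27 in the parotid glands. It was not well above background at day 14, in the submandibular gland or in parotid replicate 2, so the order of these is not known. All 3 kept probes of Msr1 were highest in the untreated tumours.

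Gpnmb encodes a transmembrane glycoprotein of lysosomes and melanosomes that lipid-loaded macrophages express. It read −0.17 and −1.07 in untreated tumour, −1.12 at day 3, −5.45 and −6.05 at day 14, −3.69 in the submandibular gland, and −3.31 and −1.13 in the parotid glands (probe at mm8, chr6:48985973-48986032). Its signal was not well above background at day 14 or in the submandibular gland. Parotid replicate 2 came close to untreated tumour and day 3, whereas parotid replicate 1 was lower. Of 6 pigment-cell markers, Tyr, Dct and Tyrp1 were not well above background on any array and Mlana on parotid replicate 1 alone. Pmel and Mitf were well above background on both untreated tumours, both day 14 arrays and parotid replicate 1, and Pmel on parotid replicate 2 as well. Mitf, a transcription factor of pigment cells that macrophages also express, was higher at day 14 than in untreated tumour (1.47 ± 0.41, adjusted p = 0.0285), whereas Gpnmb was lower. Mitf was dim. It read −2.95 and −3.14 at day 14, where the dimmest signals well above background were −3.18 and −3.76. In untreated tumour it read −4.31 and −4.72, where the dimmest such signals were −5.13 and −5.60. A link between Mitf and Gpnmb was not tested.

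Clec7a is dectin-1, a receptor for fungal beta-glucans. Its levels (probe at mm8, chr6:129427414-129427473) were 0.81 and 1.61 in untreated tumour, 1.96 at day 3, −0.86 and −0.68 at day 14, 0.69 in the submandibular gland, and 1.56 and 1.52 in the parotid glands. As with Emr1, the day 14 tumours were below all 6 other arrays, and untreated tumour and parotid overlapped.

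Cd14, the lipopolysaccharide co-receptor of TLR4, and Marco, a scavenger receptor for bacteria and particles, did not follow the other phagocytic genes. Cd14 read 1.14 and 0.81 in untreated tumour, 2.12 at day 3, 2.43 and 2.16 at day 14, 2.73 in the submandibular gland, and 0.51 and 1.34 in the parotid glands. Untreated tumour and parotid overlapped below the other 3 groups. Marco (probe at mm8, chr1:122302084-122302103) was at −0.60 and 1.03 in untreated tumour, −3.09 at day 3, 3.08 and 3.35 at day 14, 0.98 in the submandibular gland, and 4.96 and 0.81 in the parotid glands. The parotid arrays lay far apart for Marco (SD 2.93, n = 2). Replicate 1 was also the parotid array with more lymphoid signal, with 6 T-cell markers averaging 2.59, against −2.50 in parotid replicate 2, and 6 B-cell markers averaging 3.53, against −0.48. Their part in the Marco values was not tested.

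The sequences before the start sites are shown for 4 members. Cd163 and Mrc1 were lower in untreated tumour than in parotid, and Cd68 and Gpnmb were lower at day 14 than in untreated tumour. Mrc1 was not called in day 14 against untreated tumour (0.56), nor Gpnmb in untreated tumour against parotid (1.60). The 4 are therefore not 2 pairs shown to change oppositely. The sequences come from RefSeq on GRCm38.p6, 250 bases each, 5′ to 3′ on the strand of the gene. Cd163 lies at chr6:124304401-124304650 (+), Mrc1 at chr2:14229164-14229413 (+), Cd68 at chr11:69666171-69666420 (−) and Gpnmb at chr6:49036268-49036517 (+). Capitals mark matches, on either strand, to GAGGAA (the core of sites for the macrophage factor PU.1), CATGTG (an E-box of MITF and TFE factors) and TGACTCA (an AP-1 site).
Cd163: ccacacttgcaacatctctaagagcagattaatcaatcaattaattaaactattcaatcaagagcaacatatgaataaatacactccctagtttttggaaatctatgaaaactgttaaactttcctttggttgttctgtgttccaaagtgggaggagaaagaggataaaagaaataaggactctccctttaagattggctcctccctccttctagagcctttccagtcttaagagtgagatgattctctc
Mrc1: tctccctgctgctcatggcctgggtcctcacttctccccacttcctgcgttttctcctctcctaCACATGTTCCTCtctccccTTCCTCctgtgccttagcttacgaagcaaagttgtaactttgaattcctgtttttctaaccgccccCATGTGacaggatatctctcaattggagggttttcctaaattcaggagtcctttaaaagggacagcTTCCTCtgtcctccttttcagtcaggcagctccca
Cd68: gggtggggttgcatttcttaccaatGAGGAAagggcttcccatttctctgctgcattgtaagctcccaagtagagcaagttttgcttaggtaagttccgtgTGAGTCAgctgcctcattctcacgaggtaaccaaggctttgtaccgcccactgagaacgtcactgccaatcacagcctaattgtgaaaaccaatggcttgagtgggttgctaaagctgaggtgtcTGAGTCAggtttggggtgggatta
Gpnmb: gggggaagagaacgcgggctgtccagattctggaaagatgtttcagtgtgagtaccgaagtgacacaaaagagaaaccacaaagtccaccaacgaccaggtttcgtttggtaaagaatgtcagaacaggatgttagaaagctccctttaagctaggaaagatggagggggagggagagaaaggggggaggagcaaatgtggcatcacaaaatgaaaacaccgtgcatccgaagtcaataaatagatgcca
GAGGAA occurred in 23.3% of the 32851 RefSeq windows of this length, CATGTG in 12.3% and TGACTCA in 4.46%. Mrc1 held 3 matches to GAGGAA and 2 to CATGTG, and Cd68 held 1 to GAGGAA and 2 to TGACTCA, with no overlap between matches. Cd163 and Gpnmb held none of these letters in this window. The windows of Marco and Clec7a each held 1 GAGGAA. Windows were used for 6 of the 10 members, and Emr1, Msr1, Csf1r and Cd14 are only named here.

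In untreated tumour against parotid, which asks how tumour and normal gland differ, 2 of the 4 resident-type genes were lower and 2 of the 6 phagocytic genes higher. Cd163 fell most, to a mean of −4.94 ± 0.89 in untreated tumour, against 1.17 ± 0.50 in parotid (SD, n = 2 each), a difference of −6.10 ± 0.54 (adjusted p = 0.000611). Mrc1 fell as well (−1.48 ± 0.37, adjusted p = 0.0245). Msr1 rose by 2.74 ± 0.40 (adjusted p = 0.00345), with 1 of 2 parotid arrays well above background, and Cd68 by 1.14 ± 0.28 (adjusted p = 0.0218), or 2.21-fold. Of the 10 genes 2 were called higher and 2 lower, where 18.7% and 20.3% of all genes were. The other 6 were not called, among them Csf1r (−0.91 ± 0.37), Gpnmb (1.60 ± 0.77), Marco (−2.67 ± 1.27), Emr1 (−0.24 ± 0.30), Clec7a (−0.33 ± 0.31) and Cd14 (0.05 ± 0.32). The median difference was −1.19 over the 4 resident-type genes and 0.60 over the 6 phagocytic ones, against 0.02 over all genes. The Mrc1 and Cd68 calls were lost without either day 14 array or untreated tumour replicate 1 (adjusted p between 0.0521 and 0.147), the Cd68 call also without untreated tumour replicate 2 (adjusted p = 0.153) and the Mrc1 call with slide as a block (adjusted p = 0.0665). With normexp background correction, whose offset compresses dim signals, Cd163 was at −3.48 and Msr1 at 1.40, both still called.

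In day 14 against untreated tumour, which asks what longer rapamycin treatment went with, 5 of the 10 genes fell and 2 rose, where 23.5% of all genes fell and 24.3% rose. Among the phagocytic genes, Cd68 fell to −1.33 ± 0.11 at day 14, against 1.62 ± 0.24 in untreated tumour (SD, n = 2 each), a difference of −2.95 ± 0.28 (adjusted p = 0.000701) or 7.72-fold. Msr1 was at least 9.84-fold lower (adjusted p = 0.000746) and Gpnmb at least 7.21-fold lower (adjusted p = 0.00315). These 2 folds are bounds because neither gene was well above background at day 14. They compare untreated tumour with the dimmest signal that could be measured at day 14, or the gene's own where that was higher. Their adjusted p-values belong to the fitted differences (−4.16 and −5.13), which include the dim readings, and the bounds were not tested. Msr1 passed the filter through untreated tumour and day 3 alone, where it was high. Clec7a fell by 1.98 ± 0.31 (adjusted p = 0.00364). Cd14 went the other way, to 2.29 ± 0.19 at day 14, against 0.98 ± 0.23 in untreated tumour (a difference of 1.31 ± 0.32, adjusted p = 0.0176). Marco (3.00 ± 1.27, adjusted p = 0.0962) was not called.

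The resident-type genes split in the same comparison. Cd163 rose 38.0-fold (5.25 ± 0.54, adjusted p = 0.000906), although only 1 of 2 untreated tumours was well above background for it. Emr1 fell 3.92-fold (−1.97 ± 0.30, adjusted p = 0.00336). Csf1r (−0.03 ± 0.37) and Mrc1 (0.56 ± 0.37) were not called. The median was 0.26 over the 4 resident-type genes and −2.46 over the 6 phagocytic ones, against 0.02 over all genes. Within slide 1, where day 14 replicate 1 lies with both untreated tumours, the difference was 4.86 for Cd163, −2.87 for Cd68, −4.12 for Msr1 and −1.97 for Emr1. The Cd14 call was lost when any of the 4 arrays of these groups was left out (adjusted p between 0.054 and 0.113). With normexp correction the differences were smaller for the dim genes, 2.79 for Cd163, −1.69 for Msr1 and −1.68 for Gpnmb, all still called.

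**Figure D2:**
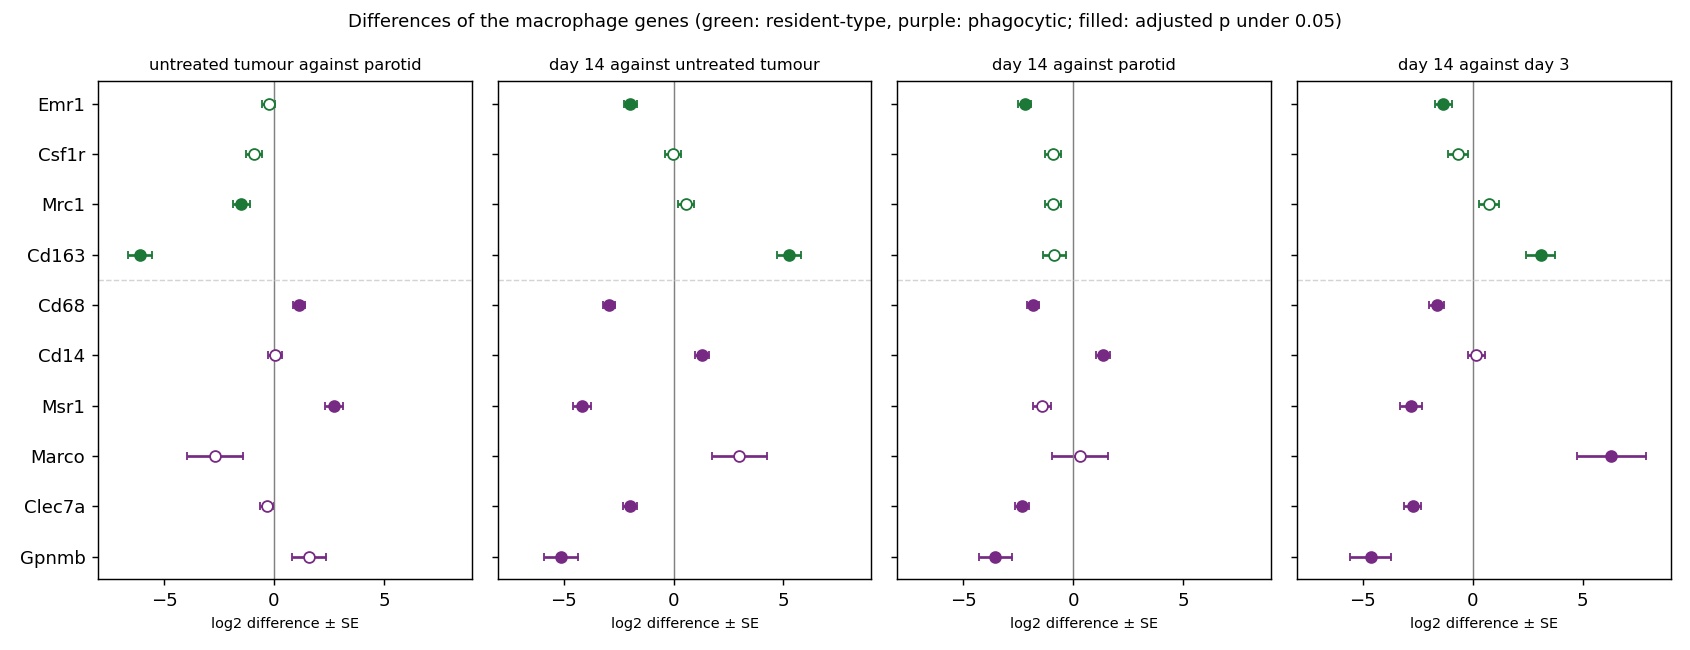
Log2 differences ± SE (horizontal axis) of the 10 macrophage genes (rows, resident-type above the dashed line and phagocytic below it) in 4 comparisons, with filled points for adjusted p under 0.05. Cd163 lies at −6.10 for untreated tumour against parotid and at 5.25 for day 14 against untreated tumour, and Cd68, Msr1 and Gpnmb lie left of 0 at day 14. Day 14 values of Msr1 and Gpnmb rest on signals that were not well above background.

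Day 14 against parotid shares its arrays with both comparisons above. Here 1 of the 10 genes was called higher and 4 lower, where 6.25% and 5.07% of all genes were. Emr1 was 4.63-fold lower (−2.21 ± 0.30, adjusted p = 0.0131), Clec7a 4.96-fold lower (−2.31 ± 0.31, adjusted p = 0.0128) and Cd68 3.50-fold lower (−1.81 ± 0.28, adjusted p = 0.0181) at day 14. Gpnmb was at least 2.38-fold lower (adjusted p = 0.0388), a bound that rests on parotid replicate 2: it was 1.11-fold without that array and 5.07-fold without parotid replicate 1. Cd14 was higher by 1.37 ± 0.32 (adjusted p = 0.0465). Cd163 (−0.85 ± 0.54), Mrc1 (−0.92 ± 0.37) and Csf1r (−0.93 ± 0.37) were not called. Emr1, Cd68, Clec7a and Gpnmb were lower at day 14 within each slide, with differences on slides 1 and 2 of −1.84 and −2.58 for Emr1, −1.50 and −2.12 for Cd68, −2.43 and −2.20 for Clec7a, and −2.14 and −4.92 for Gpnmb, whose day 14 values were dim. Without day 14 replicate 1, or without replicate 2, 0 of the 10 genes were called by limma (adjusted p of those 5 between 0.136 and 0.265), while 6 had an unadjusted p under 0.05 in each case. The Cd14 and Gpnmb calls were also lost without either untreated tumour array (adjusted p between 0.0679 and 0.0888) and with slide as a block (0.0612 and 0.0506), and Gpnmb was at −0.68 with normexp correction (adjusted p = 0.552).

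At day 3, 0 of the 10 genes were called by limma against untreated tumour, where 0.00611% of all genes, a single gene, were. At an unadjusted p under 0.05 there were 4, namely Cd68 (−1.31 ± 0.34, adjusted p = 0.351), Msr1 (−1.36 ± 0.49, adjusted p = 0.509), Cd14 (1.14 ± 0.39, adjusted p = 0.486) and Cd163 (2.15 ± 0.67, adjusted p = 0.434). The Cd163 difference was 0.41 with normexp correction and 1.41 with slide as a block. The single day 3 array was assumed to vary like the replicated groups, and it lies on the other slide than both untreated tumours. Gpnmb (−0.50 ± 0.94) and Clec7a (0.75 ± 0.38) were not called.

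Between the 2 treatment times, day 14 against day 3, 2 of the 10 genes were called higher and 5 lower, where 10.9% and 11.8% of all genes were. Clec7a (−2.73 ± 0.38, adjusted p = 0.00598), Cd68 (−1.64 ± 0.34, adjusted p = 0.0208) and Emr1 (−1.33 ± 0.37, adjusted p = 0.0475) were lower at day 14. Msr1 was at least 3.82-fold lower (adjusted p = 0.0126) and Gpnmb at least 5.11-fold lower (adjusted p = 0.0193). Marco (6.31 ± 1.56, adjusted p = 0.0342) and Cd163 (3.09 ± 0.67, adjusted p = 0.0230) were higher. Cd14 was not called (0.17 ± 0.39, adjusted p = 0.772). Without either day 14 array, 0 were called by limma (adjusted p of those 7 between 0.0501 and 0.173), and 7 had an unadjusted p under 0.05 in each case. With normexp correction, Msr1 (−0.59, adjusted p = 0.460) and Gpnmb (−1.25, adjusted p = 0.183) were not called, and with slide as a block Emr1 (adjusted p = 0.0930) and Marco (adjusted p = 0.0636) were not. Both of the latter calls were also lost in limma without the intensity trend (adjusted p = 0.0763 for Emr1 and 0.0518 for Marco). The Emr1 call was lost as well without either untreated tumour array.

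Against the submandibular gland, untreated tumour had 2 genes called higher and 2 lower, where 14.3% and 15.2% of all genes were. Cd68 was 5.49-fold higher (2.46 ± 0.34, adjusted p = 0.00402) and Msr1 at least 6.87-fold higher (adjusted p = 0.00138) in the tumours. Cd163 was lower by 3.07 on the log2 scale (SE 0.67, adjusted p = 0.0179) and Cd14 by 1.75 (SE 0.39, adjusted p = 0.0202). The 2 groups lie on different slides, and with slide as a block the Cd163 (adjusted p = 0.112) and Cd14 (adjusted p = 0.121) calls were lost. Both were also lost without untreated tumour replicate 1 (adjusted p = 0.0577 and 0.0573), Cd14 without untreated tumour replicate 2 or either day 14 array, and Cd163 with normexp correction (−1.21, adjusted p = 0.264), under which Msr1 was at 1.94 and still called. Between the 2 glands, submandibular gland against parotid, 0 of the 10 genes were called by limma, 4 had an unadjusted p under 0.05, and 2.35% of all genes were called. Without either parotid array 5 of the 10 were called. The largest of these 10 differences was that of Cd163 (−3.03 ± 0.67, adjusted p = 0.0786).

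Further genes of the 2 kinds were described from lists chosen with earlier results known. Of 22 tested further resident-type genes, 1 rose and 10 fell in untreated tumour against parotid, with a median of −1.02 against 0.02 over all genes, of which 18.7% rose and 20.3% fell. The list was not limited to genes that only macrophages express. The 10 included Gas6 (−2.62), Selenop (−2.17), Axl (−1.63) and Maf (−3.42). C1qa (−0.26), C1qb (0.08) and C1qc (0.08) were among the 11 not called. Of 7 fibroblast markers 4 fell as well, and the part of other cells in the count was not tested. Timd4, a phosphatidylserine receptor of resident macrophages, was at least 27.7-fold lower (adjusted p = 0.00232), a bound of 10.1-fold without parotid replicate 1 and 76.1-fold without replicate 2. Lyve1, a hyaluronan receptor shared with lymphatic endothelium, was at least 34.9-fold lower (adjusted p = 0.000490), and Clec10a, a galactose-type lectin, fell by 5.91 ± 0.53 (adjusted p = 0.000610). At day 14 against untreated tumour 9 rose and 8 fell, with a median of −0.06, where 24.3% of all genes rose and 23.5% fell. The same 3 genes were higher there, Timd4 at least 27.0-fold (adjusted p = 0.00200), Lyve1 at least 14.2-fold (adjusted p = 0.000958) and Clec10a by 4.34 ± 0.53 (adjusted p = 0.00149). The 3 complement C1q chains, which macrophages secrete, fell together with Emr1 at day 14, C1qa by 1.62, C1qb by 2.09 and C1qc by 1.71, where C1qa and C1qc were picked after their values were seen.

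On single arrays Clec10a, like Cd163, was lowest in untreated tumour and highest in parotid. It read −1.69 and −2.79 in untreated tumour, −0.69 at day 3, 2.20 and 2.01 at day 14, 2.22 in the submandibular gland, and 3.01 and 4.33 in the parotid glands. Day 14 lay close to the submandibular gland, whereas for Cd163 it lay above it. In day 14 against parotid, 1 of the 22 further resident-type genes was called higher and 5 lower (6.25% and 5.07% of all genes). Cd5l, a secreted scavenger protein, was at least 3.92-fold lower (adjusted p = 0.0276), a bound of 2.42-fold without parotid replicate 1 and 6.35-fold without replicate 2. Folr2, a folate receptor, was lower by 3.01 on the log2 scale (SE 0.47, adjusted p = 0.0186), and C1qb lower by 2.01 (SE 0.27, adjusted p = 0.0132) at day 14.

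Of 23 tested further phagocytic genes, 6 rose and 3 fell in untreated tumour against parotid (median −0.41), where 18.7% of all genes rose and 20.3% fell. At day 14 against untreated tumour 4 rose and 5 fell (median −0.22), shares no higher than the 24.3% and 23.5% over all genes. Spp1, or osteopontin, a secreted protein also made by epithelium, had the largest difference of the list in both. It read 5.19 and 4.88 in untreated tumour, 5.66 at day 3, 1.16 and 0.66 at day 14, −1.15 in the submandibular gland, and −0.16 and 0.60 in the parotid glands. All 3 tumours without treatment or at day 3 were far above the other arrays. The differences were 4.82 ± 0.33 for untreated tumour against parotid (adjusted p = 0.000292) and −4.12 ± 0.33 for day 14 against untreated tumour (adjusted p = 0.000444).

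Trem2, a lipid-sensing receptor of macrophages, fell by 2.65 ± 0.30 at day 14 against untreated tumour (adjusted p = 0.00119) and was lower by 1.31 on the log2 scale than in parotid (SE 0.30, adjusted p = 0.0439). Lpl, lipoprotein lipase, which fat cells and muscle also make, fell in untreated tumour against parotid (−1.99 ± 0.27, adjusted p = 0.00270) and rose at day 14 (2.44 ± 0.27, adjusted p = 0.00113). Itgax, the CD11c integrin, was lower in untreated tumour than in parotid (−1.88 ± 0.40, adjusted p = 0.0132). Day 14 against parotid (6.25% of all genes higher and 5.07% lower) called 1 of the 23 higher, the fatty acid receptor Cd36 (1.30 ± 0.26, adjusted p = 0.0317), and 5 lower, among them the lysozyme gene Lyz2 (−1.28 ± 0.30, adjusted p = 0.0462). Adipocyte markers (5 tested) averaged −1.93 and −5.21 in the untreated tumours, 3.08 at day 3, 4.60 on both day 14 arrays, 1.27 in the submandibular gland, and 2.25 and 4.41 in the parotid glands. Their part in Lpl and Cd36 was not tested.

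**Figure D3:**
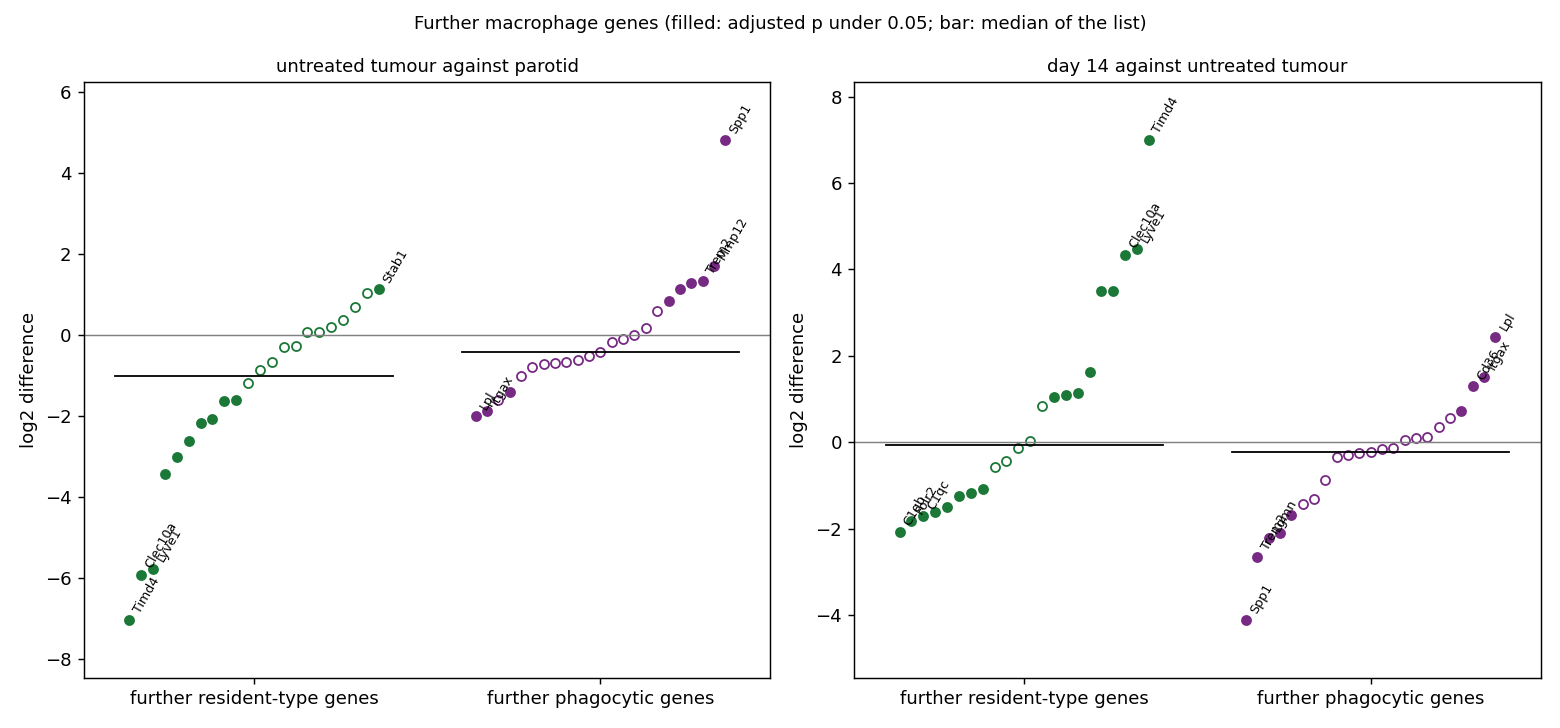
Log2 differences (vertical axis) of 22 further resident-type genes and 23 further phagocytic genes, each list sorted by size, for untreated tumour against parotid (left) and day 14 against untreated tumour (right). Filled points have an adjusted p under 0.05, names are given for those among the 3 lowest and 3 highest of a list, and the bar is the median. Timd4, Clec10a and Lyve1 are the lowest 3 of the resident-type list on the left and the highest 3 on the right, while Spp1 is highest on the left and lowest on the right.

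Ligands, chemokines and receptors of the CSF1 axis, a list that includes Csf1r itself, moved in both directions. In untreated tumour against parotid 2 of 9 tested rose and 4 fell (18.7% and 20.3% of all genes), and at day 14 against untreated tumour 4 rose and 2 fell (24.3% and 23.5% of all genes). Il34, a ligand of the receptor that Csf1r encodes, read 0.00 and −0.31 in untreated tumour, 1.02 at day 3, 4.07 and 4.23 at day 14, 3.78 in the submandibular gland, and 2.86 and 3.47 in the parotid glands. It was low in the untreated tumours and at day 3 and high elsewhere (−3.32 ± 0.27, adjusted p = 0.000461, for untreated tumour against parotid and 4.30 ± 0.27, adjusted p = 0.000237, for day 14 against untreated tumour). The other ligand, Csf1, picked after its values were seen, had the opposite signs (2.18 and −1.76, both called). Ccl2, a chemokine that recruits monocytes, rose by 2.60 ± 0.37 in untreated tumour against parotid (adjusted p = 0.00321) and fell by 3.43 ± 0.37 at day 14 against untreated tumour (adjusted p = 0.00107). Cxcl12, a stromal chemokine, had the opposite differences (−3.31 ± 0.44, adjusted p = 0.00242, and 4.80 ± 0.44, adjusted p = 0.000628).

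Of 8 tested genes of alternative activation, 0 rose and 2 fell in untreated tumour against parotid (18.7% and 20.3% of all genes), and 3 rose and 1 fell at day 14 against untreated tumour (24.3% and 23.5% of all genes). Retnla, a secreted protein of alternatively activated macrophages that fat also expresses, read −4.14 and −5.29 in untreated tumour, −1.53 at day 3, 2.13 and 1.97 at day 14, 2.54 in the submandibular gland, and 4.09 and 5.34 in the parotid glands. The untreated tumours were lowest and parotid highest, with differences of −9.43 ± 0.53 for untreated tumour against parotid (adjusted p = 0.000171) and 6.77 ± 0.53 for day 14 against untreated tumour (adjusted p = 0.000423). Only 1 of 2 untreated tumours was well above background for it, so the size of both differences is uncertain. The lectin Mgl2 was at least 25.3-fold lower in untreated tumour than in parotid (adjusted p = 0.000771) and at least 10.1-fold higher at day 14 than in untreated tumour (adjusted p = 0.00143). Ccl17, a T-cell chemokine, was at least 12.1-fold higher at day 14 than in untreated tumour (adjusted p = 0.0293). Arg1, an arginine-degrading enzyme, was lower at day 14 than in parotid (−2.59 ± 0.37, adjusted p = 0.0144), and so was Retnla (−2.66 ± 0.53, adjusted p = 0.0306).

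Of 8 tested genes of inflammatory activation, 1 rose and 3 fell in untreated tumour against parotid (18.7% and 20.3% of all genes), and 2 rose and 1 fell at day 14 against untreated tumour (24.3% and 23.5% of all genes). The costimulatory gene Cd86 was lower in untreated tumour than in parotid (−3.62 ± 0.55, adjusted p = 0.00386) and higher at day 14 than in untreated tumour (2.54 ± 0.55, adjusted p = 0.0115), being well above background on 1 of 2 arrays in untreated tumour and at day 14. The interleukin gene Il1b was lower in untreated tumour than in parotid (−1.21 ± 0.35, adjusted p = 0.0363) and lower at day 14 than at day 3 (−2.46 ± 0.43, adjusted p = 0.0121). Tlr4, the lipopolysaccharide receptor with which Cd14 works, rose at day 14 against untreated tumour (1.04 ± 0.33, adjusted p = 0.0421), and Tlr2 fell (−0.81 ± 0.22, adjusted p = 0.0254).

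Of 9 tested monocyte genes, 0 rose and 4 fell in untreated tumour against parotid (18.7% and 20.3% of all genes), and 5 rose and 1 fell at day 14 against untreated tumour (24.3% and 23.5% of all genes). Ly6c1, which capillaries also express, fell by 3.84 ± 0.20 (adjusted p = 0.000141) and rose by 2.77 ± 0.20 (adjusted p = 0.000337) in these 2 comparisons. Plac8 was lower in untreated tumour than in parotid (−2.58 ± 0.38, adjusted p = 0.00367). The lysozyme gene Lyz1 was lower at day 14, by 1.85 on the log2 scale against untreated tumour (SE 0.35, adjusted p = 0.00743) and by 1.70 against parotid (SE 0.35, adjusted p = 0.0346). The 3 kept probes of Fn1, fibronectin, disagreed in day 14 against parotid. The brightest, which stood for the gene and was called, gave 3.31 ± 0.56 (adjusted p = 0.0214), and the other two gave −2.35 and −0.63, so Fn1 has no settled direction there.

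Markers of other leukocytes and stroma also differed between the groups, in differing directions. Ptprc, the CD45 gene of all leukocytes, read −0.06 and −0.23 in untreated tumour, 0.58 at day 3, 3.70 and 3.19 at day 14, 1.70 in the submandibular gland, and 4.69 and 1.22 in the parotid glands. It rose at day 14 against untreated tumour (3.59 ± 1.01, adjusted p = 0.0278), the direction of Cd163 and opposite to that of Emr1 and Cd68. Its difference between untreated tumour and parotid was not called (−3.10 ± 1.01, adjusted p = 0.0518). T-cell markers (6 tested) averaged −5.80 and −5.94 in untreated tumour, −5.02 at day 3, −0.01 and 0.35 at day 14, −1.16 in the submandibular gland, and 2.59 and −2.50 in the parotid glands. Of 7 on the array, 1 was well above background on each untreated tumour and 0 at day 3, so the averages there are mostly of dim signals. At day 14 against untreated tumour 5 of 6 T-cell markers and 6 of 6 B-cell markers rose, where 24.3% of all genes rose.

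Of 4 tested neutrophil markers, 2 (S100a8 and S100a9) were lower at day 14 than in untreated tumour and 2 were not called, where 23.5% of all genes fell. The 4 tested averaged 1.43 and 1.49 in untreated tumour, 3.04 at day 3, −2.48 and −2.47 at day 14, −4.44 in the submandibular gland, and −1.68 and −1.07 in the parotid glands. Of 9 on the array, 2 were well above background on each day 14 array and 0 in the submandibular gland, so those averages rest wholly or partly on dim signals. S100a8 was at least 34.2-fold lower at day 14 than in untreated tumour (adjusted p = 0.00290), and S100a9 fell by 4.48 ± 0.93 (adjusted p = 0.0101). Both are also made by stressed epithelium, and 5 of the 9 on the array (Cxcr2, Ngp, Camp, Mpo and Elane) were not well above background at day 14, in the submandibular gland or in untreated tumour replicate 2. In day 14 against untreated tumour, where 24.3% of all genes rose and 23.5% fell, 3 of 5 dendritic cell markers and 4 of 8 endothelial markers rose. Of 6 general leukocyte markers 1 (Ptprc) rose, a share below that of all genes, and 5 were not called. All 6 muscle and 5 tested adipocyte markers rose at day 14 against untreated tumour, 5 of 7 epithelial markers fell, and 4 of 7 fibroblast markers rose and 1 fell. The part of these cells in the macrophage genes was not tested.

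**Figure D4:**
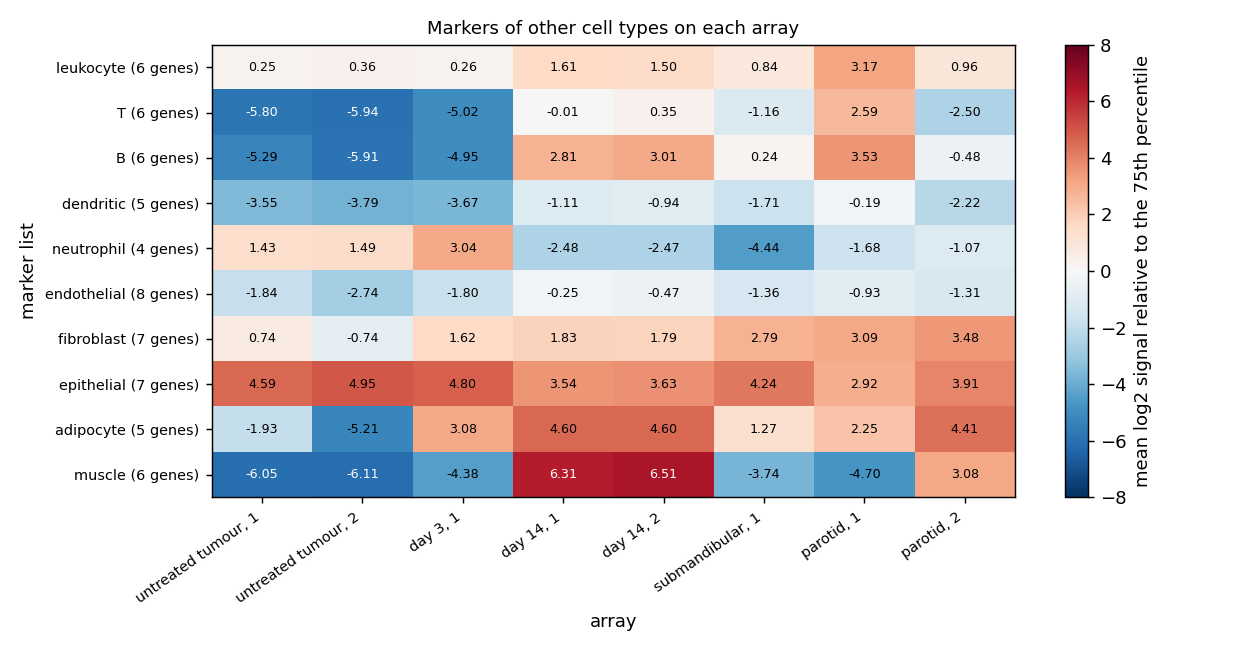
Mean log2 signal relative to the 75th percentile (colour and printed value) of 10 marker lists (rows, with the number of genes tested) on the 8 arrays (columns). T-cell, B-cell, adipocyte and muscle markers were high at day 14 and low in untreated tumour (muscle 6.31 and 6.51 at day 14, against −6.05 and −6.11 in untreated tumour), and neutrophil markers were high in untreated tumour and at day 3.

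By likeness over the 5 group means, each gene centred on its own mean, the genes nearest to the mean profile of the 4 resident-type members were Slc31a2 (root mean square log2 distance 0.081), Ifi204 (0.119), Sil1 (0.130), Cebpa (0.140) and Angptl6 (0.142). Of the members themselves Mrc1 was nearest (0.264), and Cd163 (1.572) was farthest from it. For the 6 phagocytic members they were Rap2b (0.107), Ascc1 (0.135), Ifnz (0.139), Zcwpw1 (0.148) and Lyz1 (0.153). Cd68 (0.445) was the nearest member and Marco (2.511) the farthest, so neither mean profile describes its members closely.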

How the data were processed

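Total RNA was extracted with Trizol, per the labels' protocols, and hybridised to 1-colour Agilent arrays of design 014868. Per the file headers, the authors' scanner software was Agilent Feature Extraction 10.7.3.1, whose output lists a background-subtracted processed intensity per spot, its mean intensity, local background and quality calls, not scaled between arrays. The deposited value table of the authors is on a log2 scale, has column medians of 5.52 to 5.57, correlated at 0.9869 to 0.9935 with the scanner values of its own arrays, and was used as an alternative only; how it was scaled between arrays is not given in the sources used here. Probe positions are on mm8, per the files.

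Of 43379 non-control spots, those flagged as non-uniform or outliers were left out (124 probes dropped). Of 41174 probes, 24279 were kept, those well above background throughout 1 or more groups. Genes were named through RefSeq accessions for 23366 probes, symbols for 6739 and synonyms for 2918, and 8151 kept the file's name. A gene took the values of its brightest kept probe and was counted as above background where 1 or more of its probes were. Processed intensities were put on the log2 scale, the array's 75th percentile was subtracted, and limma 3.58.1 (R 4.3.3) fitted 5 group means to all 8 arrays with an intensity-trended prior (3 residual and 3.28 prior degrees of freedom). P-values are two-sided and adjusted over all 16362 genes of a comparison, and a group of 1 array borrowed the spread of the others. The fit was also run on simulated data that held no slide effect, background floor or difference in array brightness. That run therefore does not bear on these features. Where a gene was dim on every array of a group, folds are bounds. The adjusted p beside a bound is that of the fitted difference, dim readings included, and the bound itself was not tested. Such a gene passed the filter through other groups, where it was well above background. The number of arrays limits the precision.

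The members and all gene lists were chosen with earlier results of these data known. All 10 members were described. From each other list, the text names up to 3 called genes with the largest difference in untreated tumour against parotid, day 14 against untreated tumour and day 14 against parotid, and 1 in the other comparisons, 2 for marker lists where any was called, the 5 genes nearest to each mean profile, and Ptprc, and gives a selection of these. Some genes of these lists are counted but not reported by name here. C1qa, C1qc, Csf1, Gas6, Selenop, Axl and Maf were named outside this rule, after their values were seen. Alternatives concerned the background (normexp, offset 50), the scaling (quantile, or the authors' log2 table), the filter (absent, or on every array), averaging of probes, an untrended prior, slide (as a block, or slide 1 alone) and each array in turn left out.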

Additional observations from a re-analysis of the deposited data

How the results depend on the processing

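Over 426 values of called members under the alternatives, 362 kept direction and call, 64 kept direction only and 0 reversed. Of 663 values of members that were not called, 29 passed the threshold and 60 moved by at least the gene's SD in the main fit. That SD was pooled over the groups and drawn towards the intensity trend. The number of called members changed by more than 1.5 times as follows. With a filter on all arrays, under which Cd163, Msr1 and Gpnmb were not tested, it was 2 in place of 4 for untreated tumour against parotid, 4 in place of 7 both for day 14 against untreated tumour and for day 14 against day 3, and 2 in place of 4 for untreated tumour against submandibular gland. For day 14 against parotid it was 3 in place of 5 without the intensity trend and with slide as a block, and slide as a block gave 2 for untreated tumour against submandibular gland. For submandibular gland against parotid it was 1 in place of 0 with normexp correction, quantile normalization and the deposited values. Smaller changes gave 3 (slide as a block) and 5 (slide 1 alone) for untreated tumour against parotid, 8 for day 14 against untreated tumour (normexp, no filter, slide 1 alone), 4 to 6 for day 14 against parotid, 5 for day 14 against day 3 (normexp, no trend, slide as a block), and 3 and 5 for untreated tumour against submandibular gland (normexp, no filter). Leaving out single arrays gave 2 to 6 for untreated tumour against parotid, 6 to 8 for day 14 against untreated tumour, 0 to 7 for day 14 against parotid and for day 14 against day 3, 0 throughout for day 3 against untreated tumour, 2 to 5 for untreated tumour against submandibular gland, and 0 to 5 for submandibular gland against parotid, where 5 came without either parotid array. For day 14 against parotid it was 3 without either untreated tumour array, and for untreated tumour against parotid it was 2 without either day 14 array or untreated tumour replicate 1. Apart from fewer genes or arrays entering a fit, the cause was not tested. The median difference of all genes lay between −0.04 and 0.06, and between −0.13 and 0.20 under the other scalings. No paired analysis was possible because the labels number only some replicates and tie none to a shared animal, batch or day.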
